A study of Mus musculus with 2 samples.

Results

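The REG lectins and a set of other epithelial defence proteins were followed here in mouse intestinal organoids (mIOs) with and without dextran sulfate sodium (DSS). The members were named by gene symbol, as 8 genes: Reg1, Reg3a, Reg3b, Reg3g, Reg4, Lypd8, Pigr and Lcn2. Rows for 7 of them were found among the 19294 genes of the count table, and Lcn2, which encodes a siderophore-binding lipocalin, has no row there and was not analysed here. The mIOs were grown from jejunal crypts of Lgr5-EGFP-IRES-creERT2 mice, which carry EGFP and a tamoxifen-inducible Cre at the Lgr5 locus, in Matrigel with EGF, Noggin and R-spondin. The control group was 1 untreated culture at day 4, and the DSS group was 1 culture given DSS, a polymer toxic to epithelium, for 4 days. The same genotype and medium applied to both. The age, sex and number of the mice and the DSS concentration used for sequencing are not given in the sources used here.

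REG proteins are small secreted C-type lectins of the gut and pancreas. The Reg3 lectins are released by enterocytes and Paneth cells, bind bacteria and keep them away from the epithelial surface, and their genes are known targets of cytokine signaling through STAT3. LYPD8 is a GPI-anchored glycoprotein that coats flagellated bacteria, and the polymeric immunoglobulin receptor, encoded by Pigr, carries IgA from the basal side of the epithelium into the lumen.

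Sequencing depth was 65493032 counts for the control and 59746968 counts for DSS. Counts were scaled with TMM factors (1.09 and 0.915), which correct for differences in RNA composition, and a level is given in CPM, scaled counts divided by the library size in units of 1e+06, divided by transcript length in kb where genes are compared. The DSS effect is the log2 ratio of scaled counts, DSS over control, with a Clopper-Pearson 95% interval in parentheses. With 1 library per condition no test between conditions was possible, and the intervals cover counting error only, not the variation between cultures. A gene was called where its log2 ratio was 2 or more, or -2 or less. In bulk RNA, fewer cells of a type and less RNA per cell cannot be told apart. All 8 epithelial markers were present in both libraries, with log2 ratios from -1.35 for Cdx2 to 1.25 for Vil1 and a median of 0.03. Epcam, Cdh1 and Krt18 lay between -0.03 and 0.04, Krt8 and Krt19 were at 0.84 and 1.15, and Cdx1 was at -0.61. The cell type on the labels is intestinal stem cells, whose markers, picked after their values were seen, were much lower with DSS. Lgr5 was at 263.4 CPM in the control and at 19.2 CPM after DSS, and Olfm4 at 183.2 and 0.238 CPM. The part of these differences in the members' values was not tested.

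The 5 REG members differed in direction. Reg1 and Reg3a were far higher in the DSS library, Reg4 was higher, Reg3g was close to its control level and Reg3b was lower. Reg1, Reg3a, Reg3b and Reg3g lie next to each other on chromosome 6, with Reg2 and Reg3d between them, and Reg4 lies on chromosome 3. The 250 bases upstream of the RefSeq start sites of the 4 clustered members are shown because these neighbours differ in direction. They are given in the GRCm38.p6 build, 5′ to 3′ on the strand of the gene, with matches to the STAT motif TTCNNNGAA and to the TATA box TATAAA, on either strand, in capitals.
Reg1, chr6:78425733-78425982, plus strand: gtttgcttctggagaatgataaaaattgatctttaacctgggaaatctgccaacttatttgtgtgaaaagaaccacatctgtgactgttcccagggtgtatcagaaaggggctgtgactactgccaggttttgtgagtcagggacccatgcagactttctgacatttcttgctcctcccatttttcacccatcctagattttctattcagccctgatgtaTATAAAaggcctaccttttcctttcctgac
Reg3a, chr6:78380459-78380708, plus strand: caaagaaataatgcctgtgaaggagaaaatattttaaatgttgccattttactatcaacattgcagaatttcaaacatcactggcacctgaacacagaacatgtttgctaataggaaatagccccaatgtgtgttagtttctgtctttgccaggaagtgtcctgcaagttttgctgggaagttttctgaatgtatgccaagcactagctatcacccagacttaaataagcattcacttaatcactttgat
Reg3b, chr6:78370635-78370884, plus strand: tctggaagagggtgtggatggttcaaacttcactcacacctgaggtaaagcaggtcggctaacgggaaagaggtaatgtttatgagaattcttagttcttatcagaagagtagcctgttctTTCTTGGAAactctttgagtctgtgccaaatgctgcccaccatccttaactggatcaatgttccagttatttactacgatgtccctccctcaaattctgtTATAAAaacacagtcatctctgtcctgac
Reg3g, chr6:78468875-78469124, minus strand: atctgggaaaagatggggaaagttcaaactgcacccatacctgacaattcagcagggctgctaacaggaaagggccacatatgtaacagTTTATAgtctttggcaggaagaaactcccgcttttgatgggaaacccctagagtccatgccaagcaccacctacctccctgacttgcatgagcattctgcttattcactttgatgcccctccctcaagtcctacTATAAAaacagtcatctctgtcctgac

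Of these 4 windows, that of Reg3b holds the STAT letters, from -129 to -121 relative to the start site. The letters also occur in the window of Reg3d, from -238 to -230, and in that of Pigr, downstream of the start from 40 to 48. The log2 ratio was -1.41 for Reg3b, 3.91 for Reg3d, on 10 control counts, and -0.82 for Pigr. Any part of these letters in the ratios was not tested. Over the full windows of 300 bases, which add 50 bases downstream, the STAT letters occurred in 8.30% of the 32851 RefSeq promoters and the TATA letters in 13.6%. A TATA match lies at -30 in Reg1, at -29 in Reg3b and at -27 in Reg3g, and the Reg3a window has none. Reg1 and Reg3g each have a second match on the opposite strand, at 36, past the bases shown, and at -161. Letters of other motifs were also searched. In these 4 windows the only further match was to the AP-1 letters TGANTCA, in Reg1 from -117 to -111. The AP-1 letters occurred in 7.81% of the promoters. The Reg3b and Reg3g windows were the most alike among the REG genes in the count table, with 68.1% identity by global alignment and a run of 29 identical bases, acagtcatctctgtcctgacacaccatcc, at the same place in both, from -20 to 9. The identity of Reg1 with Reg3a was 47.9%. These matches describe letters in the windows, and binding was not measured.

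Reg1, an acinar and epithelial lectin that is known as a regeneration-induced growth factor, had 1883 counts in the control library and 28181 in the DSS library. The DSS value was 19.6-fold higher, or 4.29 on the log2 scale (4.22 to 4.36). Only 0.795% of the genes tested had a higher ratio. Its level per kb went from 34.2 to 670.3 CPM per kb, and from rank 1911 to rank 104 of the 13421 genes with a transcript length.

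Reg3a had 491 counts in the control library and 5389 in the DSS library, the smallest control count of the members. This gave a 14.4-fold difference, or 3.84 in log2 units (3.71 to 3.98). Reg3d, a neighbour that is not a member, showed a ratio of like size on far fewer reads. It had 10 and 115 counts, and its ratio of 3.91 had a wide interval, 2.98 to 5.01.

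Reg4, which marks enteroendocrine cells of the small intestine and deep secretory cells of the colonic crypt, had 5533 counts in the control library and 18283 in the DSS library. Its log2 ratio came to 2.11 (2.07 to 2.16). This call depended on the scaling, since scaling by total counts alone gave 1.86 and Reg4 lay below the line of 2.

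Reg3g, the bactericidal lectin that acts on Gram-positive bacteria, had 7303 counts in the control library and 7428 with DSS. It was the REG gene with the most counts in the control. The log2 ratio was 0.41 (0.37 to 0.46), and 0.16 with total counts. The middle of the distribution of all genes was at -0.06, so Reg3g lay inside the range of most genes.

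Reg3b, its close relative, went the other way, from 3729 counts in the control library to 1073 with DSS. This is a log2 ratio of -1.41 (-1.51 to -1.31), which is a 2.65-fold lower level. It did not reach the line of -2, and 12.9% of the genes tested had a lower ratio.

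**Figure D1:**
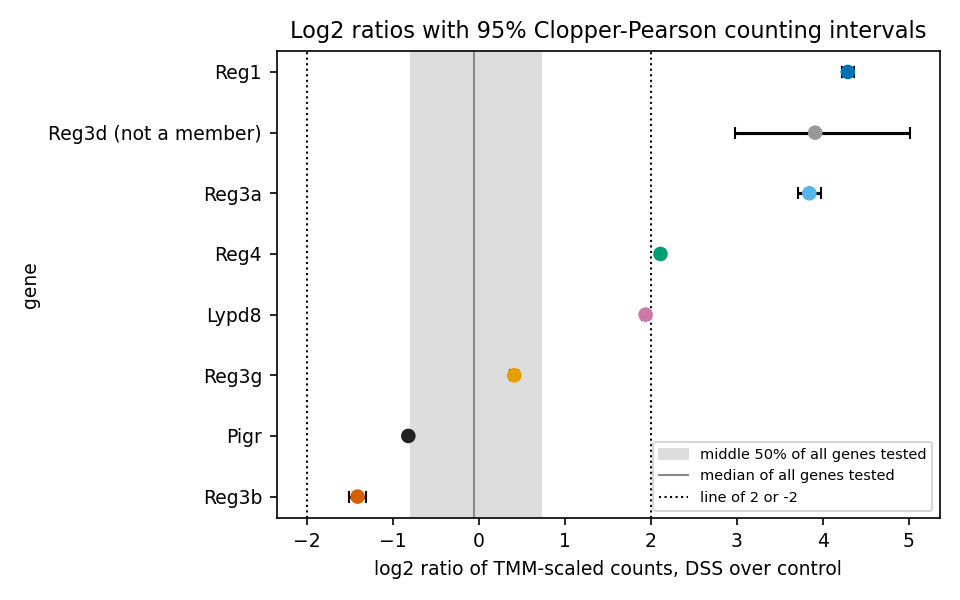
Log2 ratios of TMM-scaled counts, DSS over control (x axis), for the 7 counted members and Reg3d, 1 gene per row, with bars for the Clopper-Pearson 95% counting interval, dotted lines at 2 and -2, and a grey band for the middle 50% of all genes tested. Reg1, Reg3a and Reg4 lie past the line of 2, Lypd8 lies just under it at 1.94, Reg3g sits in the band, and Reg3b is the lowest at -1.41.

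Within a library, the ratio of a pair of genes does not depend on the scaling. Each Reg3g count was matched by 0.511 Reg3b counts in the control library and by 0.144 with DSS, a 3.53-fold lower ratio. Reg1 had 0.505 counts for each Reg3b count without DSS and 26.3 with it, a 52.0-fold difference between the libraries. The Reg3b and Reg3g coding sequences are 76.0% identical, and the longest run their GENCODE transcripts share is 35 bases, the longest shared by any REG pair. How the counting treated reads that match more than one of these genes is not given in the sources used here.

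The sum over the 6 REG genes in the table is not changed by reads moved between them. Reg2, the REG gene closest to Reg1 in coding sequence at 78.8% identity, has no row, and reads moved to or from it would change the sum. The sum was 18949 counts in the control library and 60469 in the DSS library, or 2.06 higher in log2 units (2.04 to 2.09). Without Reg1 the log2 ratio of the sum was 1.31, and for the 4 Reg3 genes alone it was 0.67. The make-up of the REG counts changed more than the Reg3 total. Reg3g took 38.5% of the REG counts in the control library (binomial interval 37.8 to 39.2) and 12.3% in the DSS library (12.0 to 12.5). Reg3b went from 19.7% to 1.77%, Reg1 from 9.94% to 46.6% and Reg3a from 2.59% to 8.91%. Reg4 kept close to the same share, 29.2% and 30.2%.

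**Figure D2:**
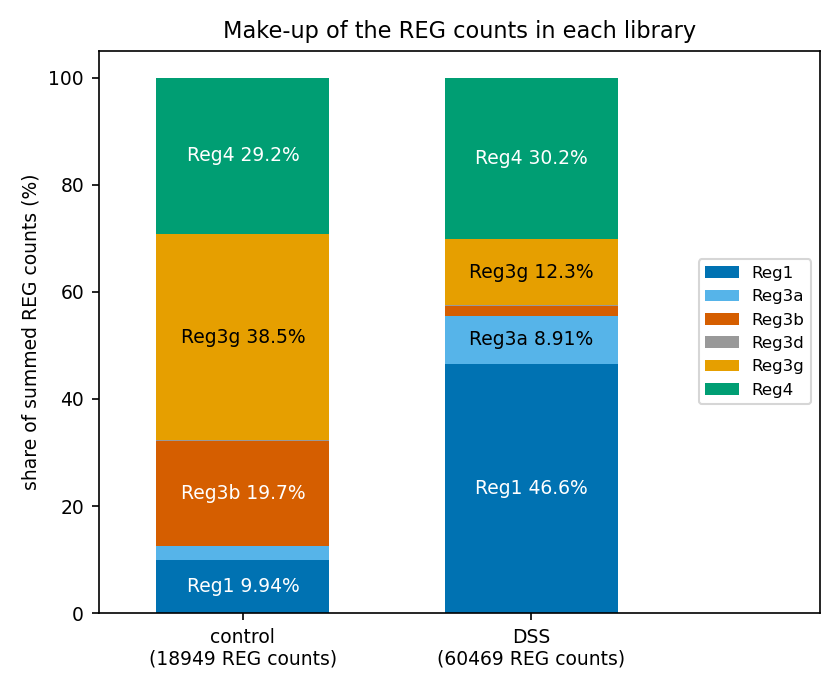
Share of each REG gene in the summed REG counts (y axis, percent) of the control library (18949 counts) and the DSS library (60469 counts), 1 stacked bar per library. Reg3g and Reg3b shrink from 38.5% and 19.7% to 12.3% and 1.77%, Reg1 grows from 9.94% to 46.6%, and Reg4 stays near 30%.

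Lypd8 had 6370 counts in the control library and 18677 with DSS. Its log2 ratio of 1.94 (1.90 to 1.98) lay just under the line of 2. With upper quartile factors it was 2.03 and Lypd8 was past the line. Lypd8 and Reg4 were at nearly equal levels in both libraries, at 77.0 and 75.7 CPM per kb in the control, where their Poisson intervals overlapped (75.1 to 78.9 and 73.7 to 77.7), and at 295.5 and 327.5 CPM per kb in the DSS library, where they did not.

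Pigr was the most abundant member in the control, with 105949 counts there and 45880 with DSS. Its log2 ratio came to -0.82 (-0.83 to -0.80), and 24.3% of the genes tested had a lower ratio. With total counts it was -1.07. Per kb of transcript, Pigr went from 384.6 to 218.0 CPM per kb, and it passed from the first place among the members to the fourth.

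The order of the members by level was Pigr, Reg3g, Lypd8, Reg4, Reg3b, Reg1 and Reg3a in the control library. In the DSS library it was Reg1, Reg4, Lypd8, Pigr, Reg3g, Reg3a and Reg3b. Reg1 thus moved from next to last to first, and Reg3b from the fifth place to the last, at 25.1 CPM per kb. In the control, the Poisson intervals of Lypd8 and Reg4 were the only ones of neighbours in the order that overlapped.

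**Figure D3:**
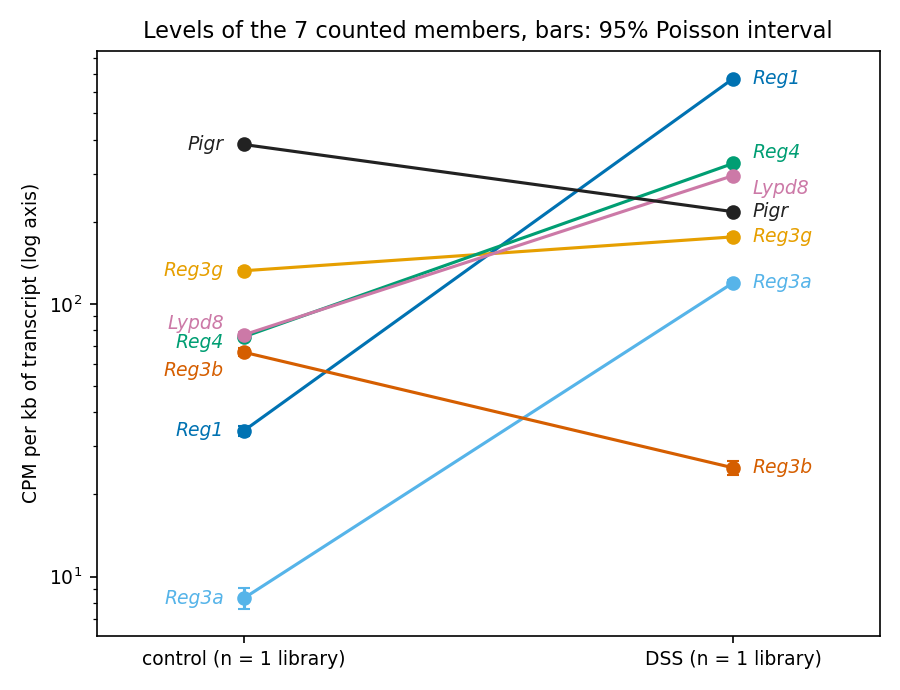
Level of each of the 7 counted members in CPM per kb of transcript (y axis, log scale) in the control library and the DSS library, with bars for the Poisson 95% interval and a line joining the values of a gene. Reg1 goes from 34.2 to 670.3 and Reg3a from 8.32 to 119.5, while Pigr goes from 384.6 to 218.0 and Reg3b from 66.5 to 25.1, so that the lines cross.

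Of the 7 counted members, 3 were called at 2 or more and none at -2 or less. All 7 passed the filter on low counts, 10 or more in either library, as did 17235 genes in all. Of these genes, 7.87% reached 2 or more and 6.54% reached -2 or less. With a line of 1, 4 members were called upward and 1 downward, beside 19.3% and 20.2% of all genes. The median log2 ratio of the 7 was 1.94, and that of all genes tested was -0.06. No test was made on these counts, and 7 genes are few.

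**Figure D4:**
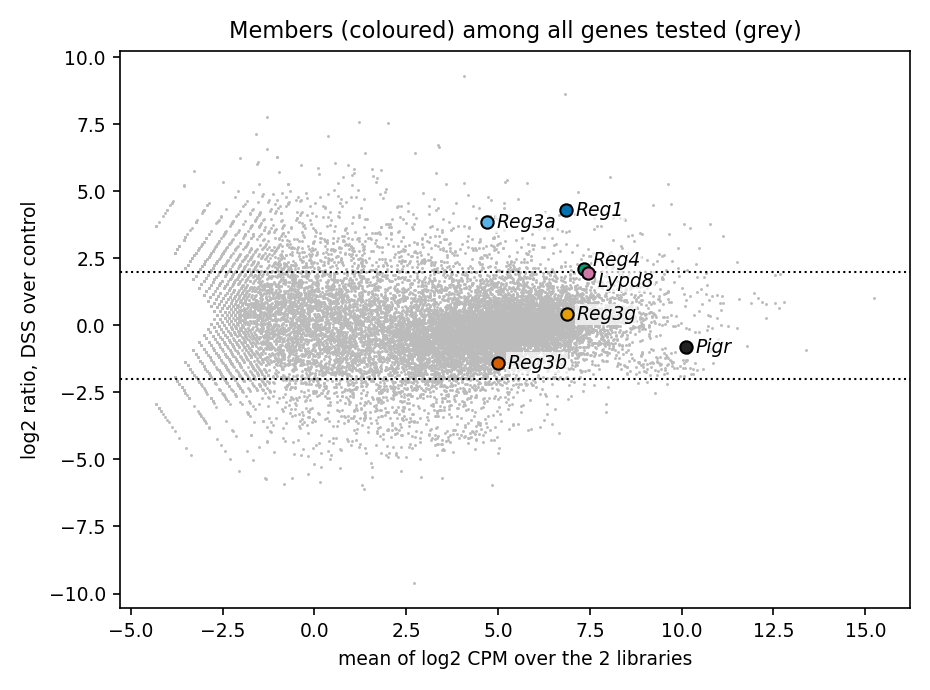
Log2 ratio of scaled counts, DSS over control (y axis), against the mean of log2 CPM over the 2 libraries (x axis), with 1 grey point for each of the 17235 genes tested, coloured points for the members and dotted lines at 2 and -2. The members lie in the abundant part of the table, where counting scatter is small, with 3 above the upper line and Pigr the most abundant.

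The lists that follow hold genes that act with the members, and were chosen with earlier results of these data known. Reg3 genes respond to IL-22 and to cytokines that signal through gp130. Of 11 receptor genes, 10 were in the table, with a median log2 ratio of 0.77, 2 at 2 or more and 1 at -2 or less. Il22ra1, the specific chain of the IL-22 receptor, had 2010 control counts and a log2 ratio of 1.38, and its partner chain Il10rb was at 1.12. Il6st, which encodes gp130, was at -0.53. Il18r1 was at 2.90 and Lifr, with 49 control counts, at -2.23. The receptor called upward beside Il18r1 was Il1r1, with 10 control counts.

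In the STAT3 list, none of the 9 genes was called in either direction and the median was 0.41. Jak2 was at 1.26, the feedback inhibitor Socs3 at 1.07 and Bcl3 at -0.79, and Stat3 itself was at 0.77. The list of NF-κB genes and their partners at Lcn2 and Pigr also had no called gene among 16, with a median of 0.46. Irf1, a known activator of Pigr, was at 1.82, and Nfkbiz, a co-activator of defence genes, was at 1.51, while Pigr was at -0.82. Cebpb was at -0.19 and the interferon-γ receptor gene Ifngr1 at 1.21. IL-22 is made by lymphoid cells, and Il22 has no row in the table. Like other genes without a row, it may still have been counted in a single library.

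The genes of immunoglobulin transport showed no common direction. Of 10 listed, 8 were in the table, Pigr among them, 5 above 0 and 3 below. None was called, and the median was 0.11. The neonatal Fc receptor gene Fcgrt was at 1.52, and Myo5b, a motor of apical recycling, at 1.42. Fcamr, a receptor for IgA and IgM that lies beside Pigr, had 54 and 36 counts, and its interval, -0.85 to 0.44, included 0. Among ligands made by the epithelium, Ccl28, which draws IgA plasma cells to mucosa, had 8064 control counts and a log2 ratio of -2.16. In that list Il18 was at 3.33, with 407 control counts. Il33, at 4.22, rested on 12 control counts.

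REG proteins are processed by trypsin-like proteases, and EXTL3 has been described as a REG receptor. Of 9 genes in a wider list of receptors and proteases, not limited to these roles, 7 were in the table, with 3 at 2 or more and a median of 1.97. Tmprss15, which encodes the enteropeptidase that activates trypsinogen, was at 5.34 on only 2 control counts, and the adenosine receptor gene Adora2a was at 2.39 on 52. Extl3 was at -0.94, with 2328 control counts, and Egfr at 0.41. Among brush border peptidases, Mep1b was at 3.59, Dpp4 at 1.97 and Mep1a at 1.58. For the LCN2 receptor gene Slc22a17, the ratio was -0.13 (-0.40 to 0.13).

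Other secreted defence proteins of the epithelium differed among themselves as the REG genes did. Of 29 listed genes, 16 were in the table, Lypd8 and Pigr among them, with 3 at 2 or more, 1 at -2 or less and a median of 0.78. Zg16, a goblet cell lectin that aggregates Gram-positive bacteria, was at 8.64, from 406 control counts. Dmbt1, a scavenger receptor protein of mucus, was at -2.98, from 10351 control counts. Ltf, the iron-binding lactoferrin, was at 3.20 on only 14 control counts. The Paneth cell products Lyz1, Itln1 and Ang4 lay at -1.06, -1.03 and -0.88. Pglyrp1, which binds peptidoglycan, was at 0.59, close to Reg3g. Sprr2a1, Sprr2a2 and Sprr2a3 were at 1.87, 1.91 and 2.05, but these near-identical copies can share reads and their separate values are uncertain.

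Lypd8 belongs to the LY6 and PLAUR family, of which 13 of 16 listed genes were in the table, with 5 at 2 or more and 1 at -2 or less. Their median, Lypd8 included, was 1.38. Ly6m was at 5.10 and Ly6g6c at 4.03, on 47 and 23 control counts, and Ly6d was at 3.72, from 294 control counts. Ly6c1 was at -2.79. Ly6e, the family member with the most control counts at 21156, was at -1.69, opposite to Lypd8.

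Markers of the epithelial cell types differed between the libraries as well. All 12 enterocyte markers were above 0, 10 of them at 2 or more, and their summed level was 2888 CPM without DSS and 25716 CPM with it. Of 8 goblet cell markers, 7 were at 2 or more, and their sum went from 866.4 to 11711 CPM. Of 8 enteroendocrine markers, 6 were at 2 or more, and the sum went from 861.7 to 4432 CPM. All 10 Paneth cell markers were below 0, 5 of them at -2 or less, and the sum went from 1155 to 346.6 CPM. The median log2 ratios of the lists were 3.15 for enterocytes, 3.16 for goblet cells, 2.32 for enteroendocrine cells and -1.69 for Paneth cells. The paper's RT-PCR found Lgr5 and Lyz lower with DSS, and Muc2, Chga and Vil1 little changed. Here the log2 ratios were -3.78 for Lgr5, -1.06 for Lyz1, 4.98 for Muc2, 2.60 for Chga and 1.25 for Vil1. Gapdh, also on the paper's primer list, was at 0.97 here, so the RT-PCR values may be scaled differently. The DSS dose and day of the RT-PCR are not given in the sources used here. Reg4 at 2.11 lay near the enteroendocrine median and Reg3b at -1.41 near the Paneth median. Reg3g at 0.41 and Reg3a at 3.84 were above 0, unlike the Paneth cell markers, and Reg3g was far below the enterocyte median. Pigr at -0.82 was below 0, unlike the enterocyte markers, and Reg1 at 4.29 and Lypd8 at 1.94 were above 0. The part of the cell types in the members' values was not tested.

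**Figure D5:**
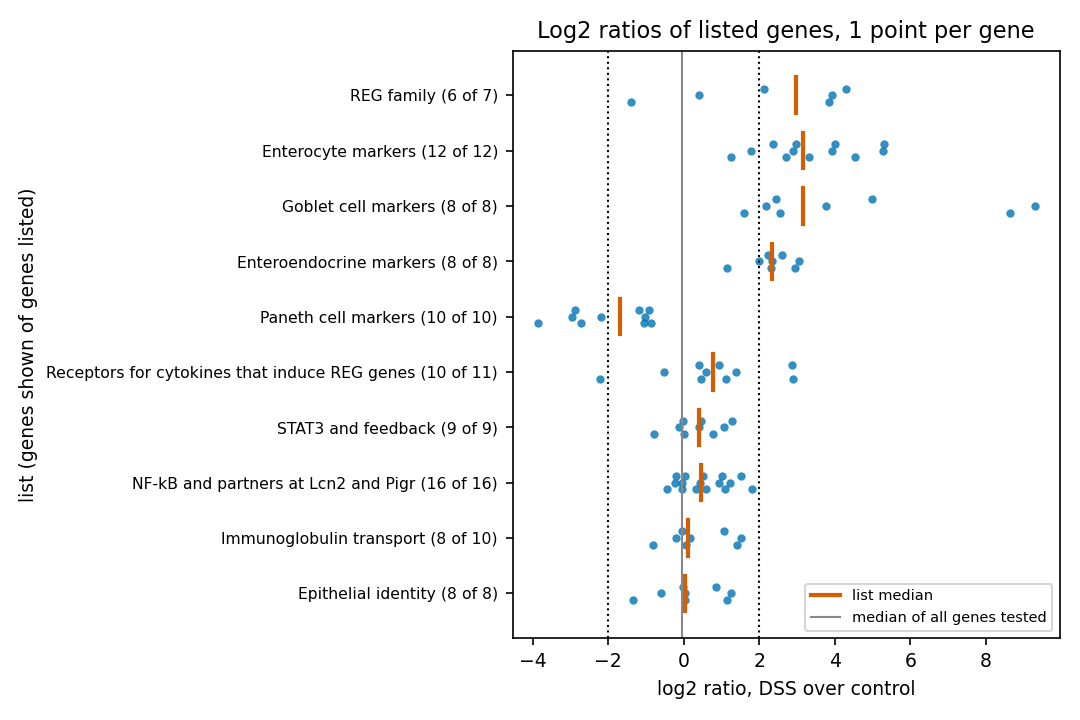
Log2 ratios, DSS over control (x axis), of the genes of 10 lists that reached 10 counts in either library, 1 point per gene, with an orange bar at the list median, a grey line at the median of all genes tested and dotted lines at 2 and -2. The REG genes spread from -1.41 to 4.29, the Paneth cell markers lie below 0, the enterocyte, goblet cell and enteroendocrine markers lie above 0, and the STAT3 and NF-κB lists stay between the dotted lines.

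Cells from outside the epithelium can also make some of these proteins, as neutrophils make LCN2 and pancreatic acinar cells make REG proteins. Of 10 neutrophil markers, 3 were in the table, at 5.49 CPM summed in control mIOs and 13.4 CPM with DSS, and S100a8, S100a9, Mpo and Elane have no row. Of 10 acinar markers, 2 were in the table, at 6.85 and 8.87 CPM in sum, and Reg1 was at 26.3 and 515.4 CPM. The part of acinar cells in the Reg1 counts was not tested. Among 12 lymphoid and macrophage markers, 3 were in the table, with Ptprc and Cd3e not among them. Of 6 fibroblast markers, 2 were in the table, at 0.447 and 0.567 CPM in sum. For region, the proximal small intestine markers Gata4 and Onecut2 had 14308 and 6762 control counts, and the colon markers Hoxb13 and Hoxd13 have no row. Every gene with a row was counted in both libraries, so a missing row does not show absence from both of them.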

How the data were processed

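The mRNA-seq data came from stranded poly(A) libraries of 1 control and 1 DSS culture. The deposited values are raw read counts for each gene and were not normalized by the authors. The files of the single samples, though named as FPKM, hold the same counts. HISAT2 and StringTie are named in the submitters' processing notes. Their versions and the genome build are not given in the sources used here. Every gene in the table has at least 1 count in both libraries. A missing row therefore does not show that a gene had no counts in both.

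Counts were scaled with TMM factors over the whole table in edgeR 4.0.16 (R 4.3.3). Ratios carry Clopper-Pearson and levels Poisson 95% intervals, which cover counting error only. No gene was tested for significance, since each condition is 1 library. Numbers of genes past a line refer to genes that reached 10 counts in either library.

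Transcript lengths were medians over the GENCODE vM21 transcripts paired with the RefSeq accessions of the count table, and over all coding transcripts of the gene where none was paired. They were matched by symbol for 13421 of 17235 genes. Promoter windows came from RefSeq (GRCm38.p6) and matched the 7 members in the table. Alignments used Biopython 1.88, other steps Python 3.11.15 and scipy 1.17.1. The computation was tested on simulated counts.

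The members and the 22 gene lists were chosen with earlier results of these data known. The named genes are the members, the other REG genes, listed genes with at least 50 counts in a library (the 3 with the largest absolute ratio first), neighbours on the chromosome, and the 2 genes nearest to each member in ratio and mean level. Listed genes named beyond the first 3, or with fewer counts, were chosen after their values were seen. A few listed or neighbouring genes are not reported here. Alternatives were other scaling factors, filters, added prior counts of 2, the deeper library thinned to the other's depth, a line of 1 and the longest transcript.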

Additional observations from a re-analysis of the deposited data

How the results depend on the processing

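The sign of the log2 ratio was kept in all 63 alternative values of the 7 counted members, and 46 of them lay inside the counting interval of the reported value. These 63 include the settings without a filter and with 10 counts in both libraries, which could not change a member's value. Total counts gave the lowest values: 4.04 for Reg1, 3.59 for Reg3a, -1.66 for Reg3b, 0.16 for Reg3g, 1.86 for Reg4, 1.68 for Lypd8, -1.07 for Pigr and 1.81 for the REG sum. They shifted every gene alike by -0.26, since TMM factors were left out, and the median of all genes was then -0.31. Upper quartile factors gave 4.38 for Reg1, 0.50 for Reg3g, 2.20 for Reg4, 2.03 for Lypd8, -0.73 for Pigr and 2.15 for the REG sum. Centering on the median of all genes gave 0.47 for Reg3g, 2.17 for Reg4, 1.998 for Lypd8, -0.76 for Pigr and 2.12 for the REG sum, so that Lypd8 was still under the line. With TMM factors from genes that reached 10 counts in either library, an alternative chosen after seeing the data, Pigr was at -0.80. The number of members at 2 or more was 2 with total counts, 4 with upper quartile factors and 3 in each other setting at this line. A line of 1 gave 4 members upward and 1 downward. Over all genes, total counts put 1087 genes past the upper line and 1521 past the lower one, against 1356 and 1127 with TMM factors.

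With the longest transcript as the length, Reg1 was at 29.1 and 570.2 CPM per kb in the control and DSS libraries and Lypd8 at 73.0 and 280.2, which puts Lypd8 below Reg4 in the control. Of 198 alternative list medians, 33 moved by more than 0.1, and 3 changed sign, all with total counts: immunoglobulin transport at -0.15, epithelial identity at -0.22 and fibroblast markers at -0.14. No paired analysis was possible because each condition is 1 library, and for the same reason no library could be left out. The depth leaves narrow intervals for the members, so the missing replicates and not the depth limit what these ratios show.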

Other observations

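Among the 3 nearest genes on either side of Reg4 in the reference table, Notch2 was at a log2 ratio of -1.12, Phgdh at -3.67 and Zfp697 at -1.13, while Reg4 was at 2.11. Beside Lypd8, Sh3bp5l was at -0.19, Zfp672 at 0.29, Zfp692 at -0.78 and 1810065E05Rik, with 16 control counts, at 2.50. Of the REG cluster, Reg3g at one end and Reg3b at the other were the genes with the most control counts, and Reg3d, Reg3a and Reg1 between them had the highest log2 ratios. Gcfc2, the third gene past Reg3g, was at -1.82, with 867 control counts.

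Among the 12770 other genes that reached 50 counts in each of the 2 libraries, those nearest to each member in log2 ratio and mean log2 CPM were listed, and over so few libraries the likeness is a weak description. For Reg1 these were Apoc3, an apolipoprotein, at a log2 ratio of 4.49, and Mme, a membrane peptidase, at 4.14. Spink1, a trypsin inhibitor, at 3.74, and Slc34a2, a phosphate transporter, at 3.85, were nearest to Reg3a. The genes nearest to Reg4 were Tmem236 at 2.10 and Slc6a8 at 2.08, and those nearest to Lypd8 were Gm10768 at 1.90 and Cobl at 1.94. Reg3b had Fkbp3 at -1.39 and Naa40 at -1.37 beside it, Reg3g had Vamp3 and Becn1, both at 0.43, and Pigr had Rn18s-rs5 at -0.64 and Rpl7 at -1.04.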
